A study of Mus musculus with 2 samples.

Results

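The 10 Notch pathway genes described here, of 32285 genes counted in single cells of the embryonic mouse eye cup, were the receptors Notch1 and Notch3, the ligands Dll1, Dll3, Dll4 and Jag1, the transcription factor genes Hes1, Hes5 and Hes6, and Rbpj. They were chosen by gene symbol, and all 10 were found in the gene table. Their unique molecular identifiers (UMIs, each marking 1 captured mRNA molecule) were read in retinal progenitors, neurogenic cells, young neurons and blood vessels of both genotypes. Levels are given as CPM, the UMIs of a gene per 1000000 UMIs summed over all cells of a class in 1 library. They are compared between classes within a gene and never between genes.

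Cells came from eye cups of E17.5 embryos homozygous for Myrf humWT or for Myrf humdG. In both strains the last mouse exon of Myrf was replaced by the matching human exon. The methods call the 3′ UTR human, whereas the results call it endogenous. In the humdG allele that exon carries the C-terminal frameshift variant itself, modelled on a splice site variant of patients. The variant is present in every cell of the animal, with no Cre or tissue promoter restricting it. The study asked what the variant changes in the retinal pigment epithelium (RPE), where the transcription factor encoded by Myrf acts. The labels give 3 pooled eye cups per genotype with the cornea removed, whereas the methods name 3 mice per genotype with the cornea kept, and a label on tissue handling names another cross, Rx>cre Myrf fl/fl. Pooling left 1 library per genotype, so no difference between genotypes could be tested, and every 95% interval given below covers counting error only.

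In the Notch pathway, a ligand on one cell (Dll1, Dll4 or Jag1) binds a receptor on its neighbour, and the cleaved receptor enters the nucleus, where it joins the DNA-binding protein RBPJ to switch on target genes. In the developing retina the targets Hes1 and Hes5 encode repressors that hold progenitors back from differentiation, while cells leaving the cycle raise ligands under proneural factors such as Neurog2. Hes6 shares the family name and fold, but it is a proneural partner that opposes Hes1 and is not a classic Notch target. Dll3 encodes a divergent ligand that acts inside the cell producing it rather than on its neighbours. In blood vessels, Notch1, Notch4, Dll4 and Jag1 pattern sprouting endothelium and arteries.

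The humWT library held 17421 barcodes and 129135207 UMIs, and the humdG library 19565 barcodes and 114319529 UMIs. After filtering, 16166 and 18173 cells remained, with medians of 3786 and 2613 UMIs. The 2 libraries shared 102 barcode sequences. Clusters were named from marker genes, none of which is a Notch gene, and the 10 genes were left out of the clustering. Each of the 5 classes compared had at least 7 of 8 markers of its own raised, such as Fgf15 in the retinal progenitor-like cells, Atoh7 and Neurog2 in the neurogenic-like cells, Crx and Prdm1 in the photoreceptor precursor-like cells, Ptf1a and Tfap2a in the amacrine and horizontal-like cells, and Pecam1 and Cdh5 in the blood vessel endothelium-like cells. They numbered 1802 and 2999 progenitor-like cells (humWT and humdG, in this order throughout), 379 and 719 neurogenic-like, 630 and 857 photoreceptor precursor-like, 508 and 893 amacrine and horizontal-like, and 641 and 378 endothelium-like cells. Red blood cell-like cells, 480 and 237 in number, were read beside them, since their own mRNA is mostly globin, and UMIs of these genes in them are taken as a background of free RNA. This background need not be equal in every class, because for Hes5 the mesenchyme-like cells (29.5 and 60.5 CPM) lay below the red blood cell-like cells (65.2 and 157 CPM). Unnamed clusters took 32.9% of the kept humWT cells and 52.3% of the kept humdG cells, and the neurons read here are therefore the named ones only, without a ganglion cell class. Myrf itself stood at 285 and 199 CPM in RPE-like cells and at 1.5 to 7.3 CPM in the 5 compared classes, against 5.9 and 2.7 CPM in red blood cell-like cells. Both alleles hold human sequence in the last exon while the counts were made on the mouse genome. Whether their 3′ UTR is human is given in conflicting ways, so 3′ counts of Myrf were not used to check the labels.

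The stretches just upstream of Hes5, Dll1 and Hes6 are shown as examples of a repressor target, a ligand and a proneural partner. Each is the 250 bases before a RefSeq transcript start on GRCm38.p6, 5′ to 3′ on the strand of the gene. Capitals mark the motifs searched on both strands: the RBPJ core TGGGAA, the N box CACNAG bound by Hes repressors, and the E boxes CAGCTG and CAGATG bound by proneural factors. No 2 of these motifs overlap in the lines shown. Hes5 lies at chr4:154960923-154962371 on the plus strand, and the stretch before it, chr4:154960673-154960922, overlaps an exon of the antisense transcript Gm20421. Dll1 lies at chr17:15367354-15376872 on the minus strand, and the stretch shown, chr17:15376933-15377182, precedes its more distal start and overlaps an exon of A930024N18Rik, a noncoding RNA on the other strand. Hes6 lies at chr1:91411483-91414038 on the minus strand, and the stretch before it is chr1:91414039-91414288.
Hes5: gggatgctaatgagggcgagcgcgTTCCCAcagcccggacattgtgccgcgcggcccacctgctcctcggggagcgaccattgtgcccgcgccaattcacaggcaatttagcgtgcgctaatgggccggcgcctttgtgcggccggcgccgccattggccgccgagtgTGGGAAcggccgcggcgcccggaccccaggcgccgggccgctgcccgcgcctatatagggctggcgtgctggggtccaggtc
Dll1: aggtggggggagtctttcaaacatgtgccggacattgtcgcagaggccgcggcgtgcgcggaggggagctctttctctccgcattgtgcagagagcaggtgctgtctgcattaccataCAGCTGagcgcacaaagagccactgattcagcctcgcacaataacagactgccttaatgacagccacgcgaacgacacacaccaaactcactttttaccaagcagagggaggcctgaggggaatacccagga
Hes6: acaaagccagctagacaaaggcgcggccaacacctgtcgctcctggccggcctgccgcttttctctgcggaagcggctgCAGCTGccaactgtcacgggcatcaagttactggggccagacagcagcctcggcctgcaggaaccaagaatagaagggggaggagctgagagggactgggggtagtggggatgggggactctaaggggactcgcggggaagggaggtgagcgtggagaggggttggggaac

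Hes5 had 2 RBPJ cores, 226 and 82 bases before the start, and of 32851 mouse promoters 21.6% held at least 1 such core and 2.77% held at least 2. Among the other genes, a start of Rbpj had 2 cores as well. The E box CAGCTG, found in 13% of all promoters, was in the stretches shown for Dll1 (132 bases before the start) and Hes6 (171 bases), and it was also found before Dll3 and Jag1. The other start of Dll1, not shown, had no match of any motif searched. The N box was present before Notch1, Notch3, Dll4 and the second start of Hes6, against 36.7% of all promoters, and CAGATG, found in 14.4%, was before none of the 9 genes with an entry. Such matches describe the letters in a window and do not show binding. Hes1 had no entry.

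**Figure D1:**
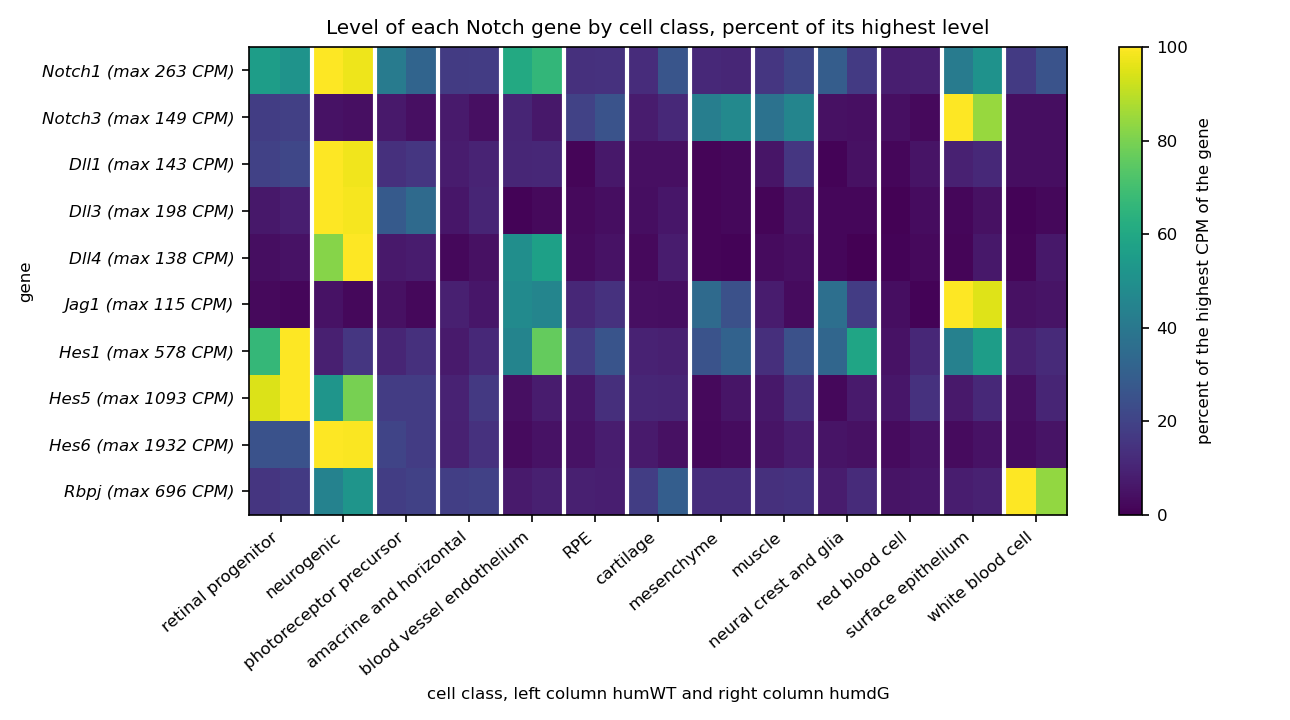
Level of the 10 Notch genes (rows) in 13 named cell classes (columns), with humWT at left and humdG at right within each class. Colour gives the CPM as a percent of the highest CPM of that gene, which is printed beside its name. Notch1, Dll1, Dll3, Dll4 and Hes6 peak in neurogenic-like cells, Hes1 and Hes5 in progenitor-like cells, Notch3 and Jag1 in surface epithelium-like cells, and Rbpj in white blood cell-like cells.

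The receptors differed in where they were found. Notch1 (chr2:26457903-26516663, minus strand), the main receptor of retinal progenitors, was highest in neurogenic-like cells in both libraries, at 263 CPM (95% interval 246 to 281) in humWT and 256 CPM (244 to 269) in humdG. Endothelium-like cells followed with 159.6 and 174 CPM and progenitor-like cells with 147 and 135 CPM, and the intervals of these 2 classes overlapped in humWT only. Photoreceptor precursor-like cells held 109.8 and 85.0 CPM and amacrine and horizontal-like cells 45.3 and 46.5 CPM, so that Notch1 was lower in the young neurons than in the neurogenic class. Red blood cell-like cells stood at 21.7 and 22.8 CPM, the lowest of the 13 classes in each library. Photoreceptor precursor-like cells also held Mki67, a gene of cycling cells, at 144 and 94.0 CPM, against 52.5 and 58.1 CPM in amacrine and horizontal-like cells. The part of cycling cells in the Notch1 levels of these classes, also between genotypes, was not tested.

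Notch3 (chr17:32120820-32166852, minus strand), the receptor known from mural and smooth muscle cells of vessels, was low in the neural retina. It reached 26.9 and 28.4 CPM in progenitor-like cells, 7.34 and 6.37 CPM in neurogenic-like cells, and 15.6 and 9.60 CPM in endothelium-like cells, against 6.34 and 3.65 CPM in red blood cell-like cells. Its highest level was in surface epithelium-like cells, led by the keratin genes Krt5 and Krt15, at 149 CPM (130.3 to 171) and 126 CPM (103 to 154). Mesenchyme-like cells held 64.0 and 70.5 CPM, and within them the cluster led by Spp1, Mgp and the mural marker Rgs5 held 99.5 and 103 CPM, whereas the cluster led by Pi16 and Tnxb held 32.9 and 31.4 CPM. In the muscle-like cluster marked by Myog, Myod1 and Pax7, genes of muscle precursors, Notch3 stood at 95.3 and 84.6 CPM, and in the cluster led by Ttn and Neb, genes of the contractile apparatus, at 20.3 and 29.7 CPM. By CPM, Notch3 was thus higher in surface epithelium-like, mesenchyme-like and muscle-like cells than in the retinal classes compared. It differed between the clusters of the mesenchyme-like and of the muscle-like cells.

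The delta-like ligands Dll1, Dll3 and Dll4 shared their highest class. Dll1, which signals to neighbouring progenitors, stood at 143 CPM (131 to 157) in neurogenic-like cells of humWT and 140.2 CPM (131 to 149.6) of humdG. Progenitor-like cells held 27.8 and 30.5 CPM, photoreceptor precursor-like cells 19.8 and 22.8 CPM and amacrine and horizontal-like cells 11.1 and 14.1 CPM, with 2.72 and 7.30 CPM in red blood cell-like cells. No other class overlapped the neurogenic-like interval of Dll1 in either library.

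Dll3 (chr7:28293553-28302238, minus strand) was also highest in neurogenic-like cells, but young photoreceptors came second. It stood at 198 and 195 CPM in neurogenic-like cells, at 56.4 and 68.5 CPM in photoreceptor precursor-like cells, and at 12.8 and 16.5 CPM in progenitor-like cells. Amacrine and horizontal-like cells held 12.2 and 20.2 CPM, which overlapped the progenitor-like interval in both libraries. In endothelium-like cells Dll3 was at 2.23 and 5.10 CPM, where red blood cell-like cells held 1.36 and 6.39 CPM, and the intervals of the 2 classes overlapped in both libraries.

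Dll4 (chr2:119325784-119335962, plus strand), which acts both in newborn retinal neurons and in the tip cells of sprouting vessels, had 2 sites. Neurogenic-like cells held 113 CPM (102 to 125) and 138 CPM (129 to 147), and endothelium-like cells 68.3 CPM (62.7 to 74.3) and 78.6 CPM (69.4 to 88.7). Photoreceptor precursor-like cells were next with 9.24 and 10.8 CPM, and progenitor-like cells held 4.98 and 6.65 CPM. All other named classes lay between 0 and 10.6 CPM, and of all Dll4 UMIs in named classes, 30.5% and 58.1% fell in neurogenic-like cells and 45.7% and 17.1% in endothelium-like cells. The split between the 2 sites differed between the libraries, and so did the number of cells, with 641 and 378 endothelium-like and 379 and 719 neurogenic-like cells.

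Jag1 (chr2:137081456-137116644, minus strand), the ligand of arteries and of many epithelia, was low in the neural retina. It stood at 2.75 and 2.24 CPM in progenitor-like cells and at 5.51 and 2.48 CPM in neurogenic-like cells, with 4.08 and 0.913 CPM in red blood cell-like cells. Endothelium-like cells held 55.3 CPM (50.3 to 60.7) and 52.5 CPM (45.0 to 60.9). Surface epithelium-like cells were highest with 115 and 109.7 CPM, and mesenchyme-like cells held 39.9 and 28.6 CPM.

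Hes1 and Hes5, the repressors downstream of Notch, were highest in progenitor-like cells. Hes1 (chr16:30064384-30067796, plus strand) stood there at 386 CPM (376 to 396) in humWT and 578 CPM (569 to 588) in humdG. Unlike Hes5 it was also high outside the neural retina, with 260.1 and 442 CPM in endothelium-like cells, 255 and 321 CPM in surface epithelium-like cells and 190.3 and 341 CPM in neural crest and glia-like cells. In neurogenic-like cells it dropped to 49.9 and 92.4 CPM, in photoreceptor precursor-like cells it stood at 58.8 and 81.3 CPM, and at 40.8 and 66.2 CPM in amacrine and horizontal-like cells. Red blood cell-like cells held 27.6 and 63.9 CPM, and in humdG the amacrine and horizontal-like interval (60.1 to 72.8) overlapped that of the red blood cell-like cells (49.8 to 80.7).

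Hes5 was the more restricted of the 2 repressors. It stood at 1037 CPM (1021 to 1053) and 1093 CPM (1080.1 to 1105) in progenitor-like cells and at 569 and 867 CPM in neurogenic-like cells, and these 2 classes held 71.4% and 8.18% of its UMIs in named classes in humWT, and 72.5% and 14.1% in humdG. Photoreceptor precursor-like cells held 196 and 196 CPM and amacrine and horizontal-like cells 105 and 183 CPM. The background was large for this gene, as red blood cell-like cells held 65.2 CPM in humWT and 157 CPM in humdG. Endothelium-like cells as a whole, at 43.3 and 82.5 CPM, lay below that level, although 1 of their 2 clusters, with 159 and 278 CPM, lay above it.

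Hes6 was highest in neurogenic-like cells. Its level was 1932 CPM (1885 to 1981) and 1918 CPM (1884 to 1952) in neurogenic-like cells, 488 and 487 CPM in progenitor-like cells, 396 and 342 CPM in photoreceptor precursor-like cells, and 175 and 278 CPM in amacrine and horizontal-like cells. This order was the same in both libraries, and no neighbouring pair among these 4 classes overlapped. Endothelium-like cells as a whole, at 56.4 and 92.4 CPM, stood beside the 57.1 and 97.6 CPM of red blood cell-like cells.

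Rbpj (chr5:53466152-53657362, plus strand), which encodes the DNA-binding partner of every Notch receptor, had UMIs in all classes, the red blood cell-like background included. Its highest level was outside the retina, at 696 CPM (666 to 727) and 582 CPM (547 to 619) in white blood cell-like cells, which are marked by C1qa and Csf1r. Among the retinal classes, neurogenic-like cells held most, with 309 CPM (291 to 329) and 364 CPM (349 to 379). Photoreceptor precursor-like cells (125 and 136 CPM), amacrine and horizontal-like cells (128 and 135 CPM) and progenitor-like cells (107 and 119 CPM) were close together, and endothelium-like cells held 50.6 and 61.5 CPM against 37.1 and 42.9 CPM in red blood cell-like cells. The endothelium-like and red blood cell-like intervals of Rbpj overlapped in both libraries.

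Shares of cells with a UMI depend on depth, so each cell was thinned at random to 2000 UMIs and shallower cells were left out, which kept 1791 and 2976 progenitor-like, 373 and 712 neurogenic-like, 621 and 248 endothelium-like and 432 and 223 red blood cell-like cells. Median depth before thinning was 8293 and 8606 UMIs in progenitor-like, 8517 and 9146 in neurogenic-like, 4546 and 2586 in endothelium-like and 4195 and 4266 in red blood cell-like cells. A Hes6 UMI was then found in 82.8% and 87.9% of neurogenic-like cells (92.3% and 95% before thinning) and in 46.1% and 47.5% of progenitor-like cells, while red blood cell-like cells gave 10.2% and 17.0%. A Hes5 UMI was found in 64.3% and 71.6% of progenitor-like cells (83.4% and 90.1% before thinning), while red blood cell-like cells gave 11.1% and 31.4%. In humdG the shares of photoreceptor precursor-like (31.6%) and amacrine and horizontal-like cells (29.0%) with Hes5 were close to that of red blood cell-like cells. These shares are not told apart from background. By CPM, the photoreceptor precursor-like interval of Hes5 in humdG (185 to 208) lay above the red blood cell-like one (134 to 182). The amacrine and horizontal-like interval (173 to 194) overlapped it. The ligands were found in fewer cells: after thinning a Dll1 UMI was present in 25.2% and 25.8%, a Dll3 UMI in 28.4% and 31.6% and a Dll4 UMI in 16.6% and 23.2% of neurogenic-like cells, and before thinning in 59.9% and 60.8%, 68.1% and 71.3%, and 48.8% and 53.7%. Red blood cell-like cells with these 3 ligands made up between 0.231% and 2.24% after thinning, below the neurogenic-like shares of all 3 ligands. With exact binomial intervals, the share exceeded that of red blood cell-like cells in both libraries without overlap for 8 of the 10 genes in progenitor-like cells, both before and after thinning. The number before and after thinning was 8 and 7 in neurogenic-like, 5 and 4 in photoreceptor precursor-like, 5 and 2 in amacrine and horizontal-like and 7 and 4 in endothelium-like cells.

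**Figure D2:**
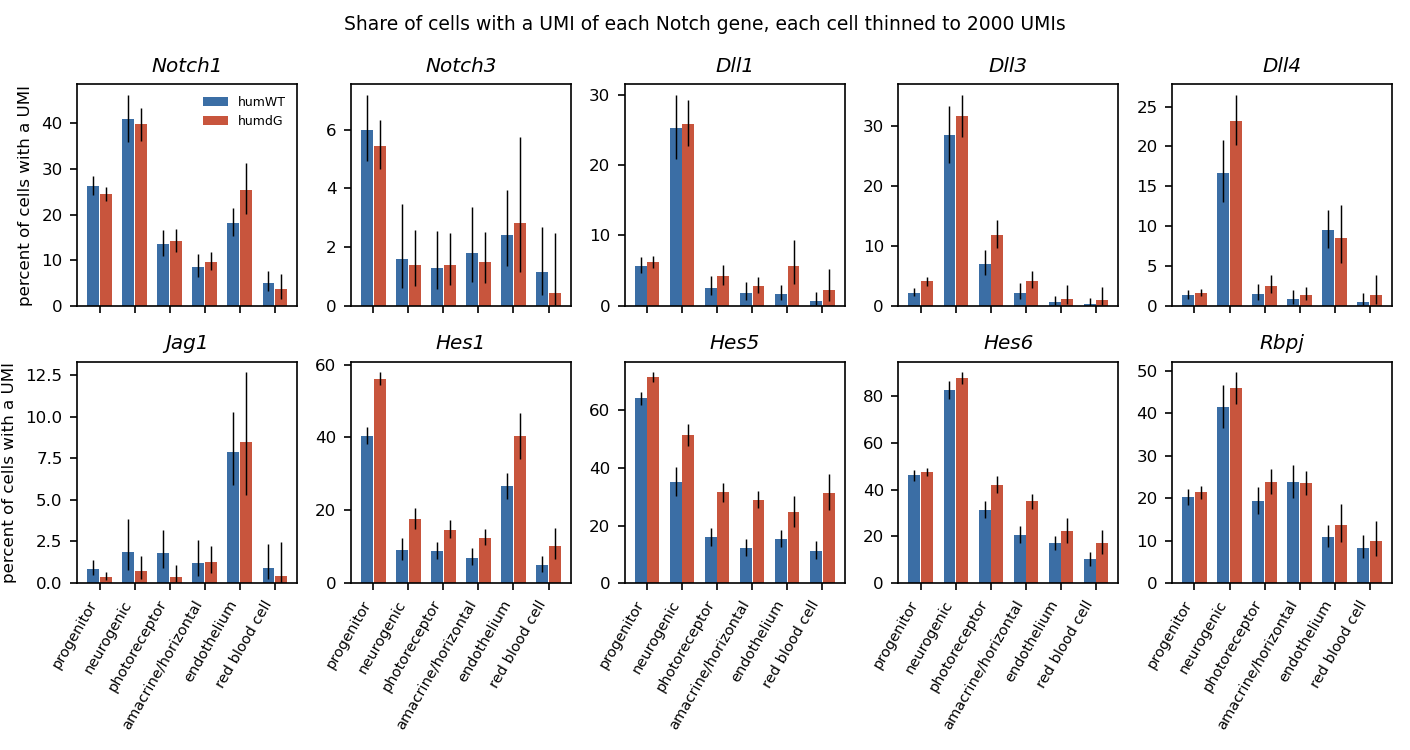
Percent of cells with at least 1 UMI of each gene after thinning every cell to 2000 UMIs, in 5 compared classes and in red blood cell-like cells, for humWT (blue) and humdG (red). Lines are exact 95% binomial intervals, and each panel has its own vertical scale. Ligand UMIs are concentrated in neurogenic-like cells, with Dll4 and Jag1 also in endothelium-like cells, while Hes5 shares of the humdG neurons match red blood cell-like cells.

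From progenitor-like to neurogenic-like cells the delta-like ligands, Hes6 and Rbpj were higher and Hes1 and Notch3 lower. Taking genes at least 2-fold apart the same way in both libraries, with at least 20 UMIs over the 2 sums compared, 5 of the 10 genes were higher in neurogenic-like cells (Dll1, Dll3, Dll4, Hes6 and Rbpj), beside 3.24% of the 14472 genes with enough UMIs. The ratio was 22.7 (17.7 to 29.3) and 20.8 (17.6 to 24.5) for Dll4, 15.5 (13.2 to 18.2) and 11.8 (10.6 to 13.2) for Dll3, and 5.14 (4.51 to 5.87) and 4.60 (4.18 to 5.06) for Dll1. Hes6 followed with 3.96 and 3.94, and Rbpj with 2.90 and 3.05. The intervals of the 2 libraries overlapped for each of these 5 genes, for Dll3 only just. Notch1, at 1.79 and 1.90, stayed under the 2-fold limit.

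In the other direction 2 of the 10 genes, Hes1 and Notch3, were at least 2-fold lower, beside 5.06% of all genes. The ratio of Hes1 was 0.129 (0.110 to 0.151) and 0.160 (0.147 to 0.173), and that of Notch3 0.273 and 0.225. Hes5 fell less, with a ratio of 0.548 (0.522 to 0.575) in humWT and 0.793 (0.771 to 0.816) in humdG, and the 2 intervals did not overlap. Of the 4 retinal classes compared, the one with the highest Notch1, Rbpj and delta-like ligands was thus the class where Hes1 had already dropped and Hes5 was still at 569 and 867 CPM.

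**Figure D3:**
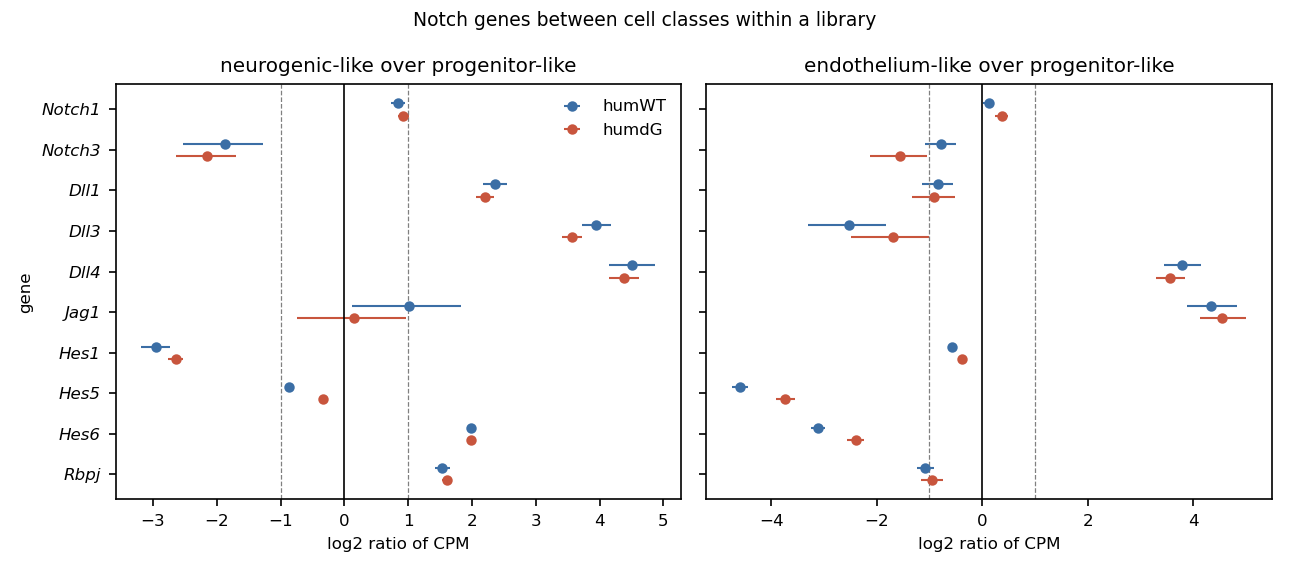
Log2 ratio of CPM between classes for each gene, neurogenic-like over progenitor-like at left and endothelium-like over progenitor-like at right, in humWT (blue) and humdG (red). Lines are exact 95% intervals for counting error, the dashed lines mark 2-fold. Dll4 is over 10 times higher in both neurogenic-like and endothelium-like cells than in progenitor-like cells, while Jag1 is so in endothelium-like cells only.

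In the young neurons most of the set was lower than in neurogenic-like cells. Between neurogenic-like and photoreceptor precursor-like cells, 7 of the 10 genes were at least 2-fold lower in both libraries (Notch1, Dll1, Dll3, Dll4, Hes5, Hes6 and Rbpj), beside 6.13% of the 12945 genes with enough UMIs, and 0 were higher, beside 7.32%. The same 7 genes were lower in amacrine and horizontal-like cells, beside 7.02% of 12857 genes, and again 0 were higher, beside 12.5%. In photoreceptor precursor-like cells the ratio was 0.0818 and 0.0781 for Dll4, 0.138 and 0.162 for Dll1, and 0.284 and 0.350 for Dll3. The amacrine and horizontal-like ratios of Dll4, Dll1 and Dll3 were 0.0270 and 0.0439, 0.0776 and 0.101, and 0.0616 and 0.103. Notch1 kept a ratio of 0.417 and 0.332 in photoreceptor precursor-like cells but 0.172 and 0.181 in amacrine and horizontal-like cells. Rbpj had nearly the same ratio in the 2 neuron classes, 0.404 and 0.373 against 0.415 and 0.371.

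Within the progenitor-like class the delta-like ligands were lower in the cluster with more Mki67, a gene of cycling cells. Cluster 3, led by histone genes, held 641 and 1105 cells with Mki67 at 476 and 413 CPM, and cluster 1 held 1161 and 1894 cells with Mki67 at 149 and 135 CPM. Pcna, a replication gene, went the other way, at 216 and 180.2 CPM in cluster 3 and 273 and 271 CPM in cluster 1, so both clusters held genes of the cycle. The ratio of cluster 3 to cluster 1 was 0.548 (0.447 to 0.669) and 0.522 (0.450 to 0.605) for Dll1, 0.439 and 0.455 for Dll3, and 0.339 and 0.385 for Dll4. Hes1 went the other way with 1.37 (1.30 to 1.44) and 1.14 (1.10 to 1.18). Hes5 and Hes6 were higher in cluster 3 in humWT, with ratios of 1.26 and 1.25, but in humdG the ratios were 1.00 and 1.03. Median depth was 12171 and 11581 UMIs in cluster 3 and 6385 and 7197 in cluster 1, and the part of depth in these ratios was not tested.

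Single progenitor-like cells with a ligand UMI were then compared with those without. A UMI of Dll1, Dll3 or Dll4 was found in 433 of 1802 humWT cells and 810 of 2999 humdG cells, with median depths of 8817 and 9262 UMIs against 8143 and 8348 UMIs in cells without. Hes6 was 2.24-fold (2.14 to 2.34) and 2.37-fold (2.29 to 2.46) higher in the ligand cells, at 826 and 823 CPM against 369 and 347 CPM. Hes1 was lower, with ratios of 0.797 (0.749 to 0.847) and 0.813 (0.783 to 0.843), whereas Hes5 was nearly even at 1.01 and 0.984. Notch1 was slightly higher in the ligand cells, with ratios of 1.30 and 1.20. Among 5 genes read in this split, Hes6 was thus the only one at least 2-fold apart in both libraries. After thinning, its log2 ratio of 0.92 in humWT lay just under that limit.

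In neurogenic-like cells most cells held a ligand UMI (334 of 379 and 649 of 719), and those without were shallow, with medians of 3527 and 3675 UMIs against 9066 and 9348. Hes5 was lower in the ligand cells, with ratios of 0.787 (0.658 to 0.948) and 0.597 (0.549 to 0.650), and Hes1 likewise with 0.544 and 0.441, but the difference in depth moves with this split. After thinning, 52.5% and 59.0% of neurogenic-like cells held at least 1 of the 3 ligands, 15% and 18.4% held at least 2, and 2.68% and 3.23% held all 3. In progenitor-like cells these shares were 8.54% and 10.6%, 0.670% and 1.14%, and 0 of 1791 cells (at most 0.206%, exact binomial) and 0.101%.

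The neurogenic-like cells were also divided by Neurog2, the proneural factor gene. Cells with a Neurog2 UMI (268 and 524) were deeper, at medians of 9371 and 10051 UMIs, than those without (111 and 195), at 5955 and 3880 UMIs. Thinning every cell to 2000 UMIs before the split put 187 cells against 186 in humWT and 411 against 301 in humdG. In the thinned cells with Neurog2, Hes6 was 1.99-fold (1.76 to 2.25) and 1.85-fold (1.69 to 2.03) higher, and Hes5 was lower with ratios of 0.513 (0.413 to 0.635) and 0.454 (0.404 to 0.510). Hes1 was lower too, with 0.642 (0.347 to 1.16) and 0.507 (0.362 to 0.707), though its humWT interval included 1. Dll4 had ratios of 1.46 (0.897 to 2.40) and 1.49 (1.12 to 2.00), against 2.10 and 2.58 before thinning. Dll1 had ratios of 0.979 (0.676 to 1.42) and 1.19 (0.910 to 1.57), against 1.34 and 1.33 before thinning. Its thinned intervals overlapped those of Dll4 in both libraries, so the 2 genes were not told apart. Dll3, with 0.842 and 0.737 after thinning, was not higher in either library.

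**Figure D4:**
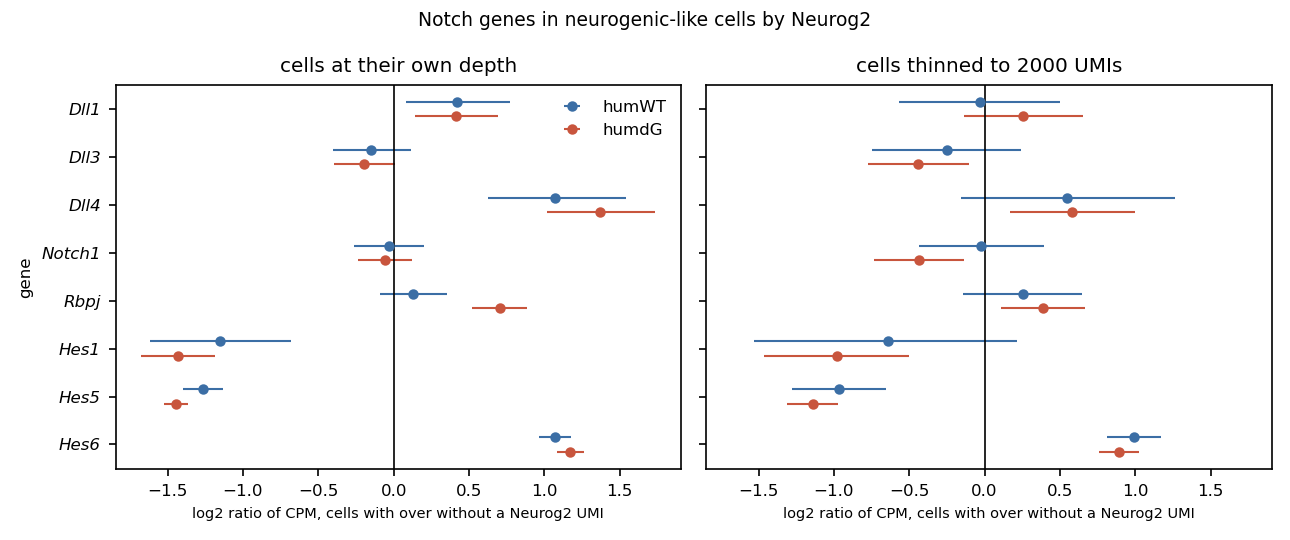
Log2 ratio of CPM in neurogenic-like cells with over those without a Neurog2 UMI, at their own depth (left) and after thinning each cell to 2000 UMIs (right), for humWT (blue) and humdG (red). Lines are exact 95% intervals for counting error. Hes6 lies above 0 and Hes5 below 0 in every case, while the interval of Dll4 in humWT reaches below 0 after thinning.

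Of the ligands among the 10 genes, Dll4 and Jag1 were higher in endothelium-like than in progenitor-like cells. Between progenitor-like and endothelium-like cells, 2 of the 10 genes were at least 2-fold higher in endothelium in both libraries (Dll4 and Jag1), beside 13.8% of the 14912 genes with enough UMIs, and 3 were lower (Dll3, Hes5 and Hes6), beside 18.1%. These counts were near the shares of all genes. Dll4 was 13.7-fold (10.8 to 17.6) and 11.8-fold (9.72 to 14.4) higher, and Jag1 20.2-fold (14.7 to 28.2) and 23.4-fold (17.3 to 32.0). Notch1 differed little, with ratios of 1.09 and 1.29, and Hes1 stood at 0.674 and 0.764 of its progenitor-like level. Hes5, at 0.0418 and 0.0755, and Hes6, at 0.116 and 0.190, were lower, and in endothelium-like cells as a whole neither exceeded its red blood cell-like level.

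The 2 endothelium-like clusters differed in depth, with medians of 14221 and 13228 UMIs in cluster 17 (led by Flt1 and Plvap) and 3133 and 1966 UMIs in cluster 14 (led by Cd93 and Vwf). Notch1 was higher in cluster 17 by 2.34-fold (1.89 to 2.92) and 1.69-fold (1.31 to 2.23), Dll4 by 2.86-fold and 1.94-fold, and Hes1 by 1.95-fold and 2.19-fold. Hes5 was lower in cluster 17 with ratios of 0.140 and 0.147, and Hes6 with 0.424 and 0.225. In cluster 14, Hes5 at 159 (138 to 183) and 278 (237 to 324) CPM and Hes6 at 110.1 (92.5 to 130.2) and 256 (216 to 300.0) CPM lay above red blood cell-like cells without overlap, and the part of free RNA in these shallow cells was not tested. Dll4 and Jag1 were found in the same cells more often than in others at full depth: a Jag1 UMI was present in 45.0% and 34.7% of endothelium-like cells with Dll4 and in 11.8% and 12.4% of those without. After thinning the shares were 13.6% and 19.0% against 7.30% and 7.49%, and rested on 8 and 4 cells with both ligands, too few to tell them apart.

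Between the genotypes, Hes1 was higher in humdG in progenitor-like and neurogenic-like cells, where Notch1 and Dll1 were nearly level. In progenitor-like cells 0 of the 10 genes were 2-fold apart, beside 7.92% of the 16067 genes with enough UMIs. The humdG over humWT ratio was 0.919 (0.872 to 0.969) for Notch1, 1.05 (0.933 to 1.19) for Notch3, 1.10 (0.973 to 1.23) for Dll1, 1.29 (1.09 to 1.53) for Dll3 and 1.34 (1.02 to 1.77) for Dll4. With the red blood cell-like CPM subtracted, the log2 ratios of Dll1, Dll3 and Dll4 turned to -0.12, -0.18 and -0.27. Rbpj had a ratio of 1.12 and Hes6 of 0.998. Hes1 stood apart with 1.50 (1.46 to 1.55), while Hes5, the other repressor, had 1.05 (1.03 to 1.07).

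In neurogenic-like cells 1 of the 10 genes was past 2-fold, beside 6.22% of all genes: Jag1, with a ratio of 0.451 (0.215 to 0.937) from 18 and 16 UMIs, near the red blood cell-like level. Notch1, Dll1, Dll3 and Hes6 had ratios between 0.973 and 0.993, with intervals that included 1. Dll4 was 1.22-fold (1.08 to 1.38) higher in humdG. The Hes repressors were higher in humdG, with 1.85 (1.56 to 2.22) for Hes1 and 1.52 (1.45 to 1.61) for Hes5. These Hes1 levels were 49.9 and 92.4 CPM, against a background of 27.6 and 63.9 CPM in red blood cell-like cells. In that background the Hes1 ratio was 2.31, and the part of free RNA in the neurogenic-like ratio was not tested.

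The neurons and vessels gave a mixed picture. In photoreceptor precursor-like cells 1 gene passed, again Jag1 at 0.470 (0.229 to 0.924) from 28 and 14 UMIs, beside 7.21% of all genes, and Notch1 was lower with 0.774 (0.685 to 0.874). In amacrine and horizontal-like cells 0 passed, beside 9.25%, but Dll4 came close at 1.98 (0.997 to 4.30) from 11 and 39 UMIs. Dll3 had a ratio of 1.65 (1.17 to 2.38) there, Notch3 0.588 (0.370 to 0.937), Hes6 1.59 and Hes5 1.74. The humdG level of Hes5, 183 CPM, overlapped that of red blood cell-like cells, and with the red blood cell-like CPM subtracted its log2 ratio turned to -0.63. In endothelium-like cells 1 passed, beside 7.26%: Dll3, at 2.29 (1.11 to 4.71) from 18 and 17 UMIs, a gene that overlapped red blood cell-like cells there. The vessel genes Notch1 (1.09), Dll4 (1.15) and Jag1 (0.949) had intervals that included 1, and Notch3 had 0.615 (0.404 to 0.913). The mural marker Rgs5 stood at 26.1 and 7.80 CPM in the same endothelium-like cells, and its part in the Notch3 ratio was not tested. The median log2 ratio over the 10 genes was 0.10 in progenitor-like, -0.02 in neurogenic-like, 0.06 in photoreceptor precursor-like, 0.51 in amacrine and horizontal-like and 0.24 in endothelium-like cells, and over all genes it lay between -0.04 and 0.02 in these 5 classes.

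**Figure D5:**
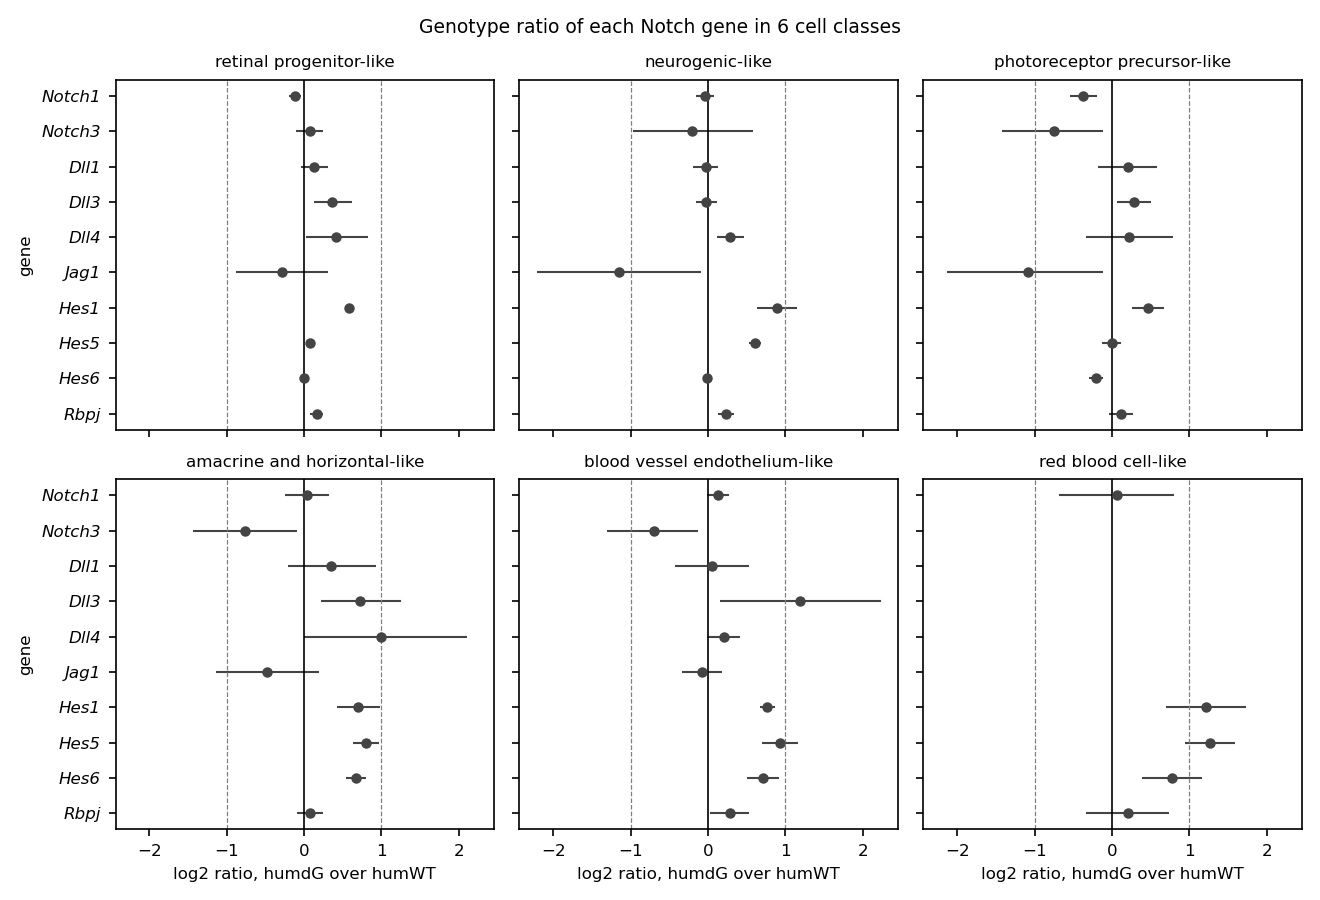
Log2 ratio of CPM, humdG over humWT, for each gene in 5 compared classes and in red blood cell-like cells, where genes under 20 UMIs in the 2 libraries together are left out. Lines are exact 95% intervals for counting error with 1 library per genotype, and dashed lines mark 2-fold. Hes1 lies above 0 in all 6 panels, and Hes1 and Hes5 are highest in the red blood cell-like cells, which are read as background.

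Hes1 was higher in humdG in 11 of the 12 named classes that could be compared, the exception being cartilage-like cells at 0.919. The ratio was 1.38 (1.20 to 1.60) in photoreceptor precursor-like, 1.62 (1.34 to 1.97) in amacrine and horizontal-like and 1.70 (1.59 to 1.82) in endothelium-like cells. It was larger still, 2.31 (1.62 to 3.31), in the red blood cell-like cells, and Hes5 had a ratio of 2.41 (1.92 to 3.02) there, so this background was higher in the humdG library for both genes. Taking the red blood cell-like CPM off each class left a log2 ratio of 0.52 for Hes1 in progenitor-like and 0.70 in endothelium-like cells, but turned the ratio to 0.560 in photoreceptor precursor-like and 0.175 in amacrine and horizontal-like cells. In humdG the Hes1 intervals of these neuron classes (74.1 to 89.0 and 60.1 to 72.8 CPM) overlapped that of red blood cell-like cells (49.8 to 80.7). Both subtracted ratios thus rest on remainders not told apart from background, and they have no interval. In progenitor-like cells the ratio stayed between 1.38 and 1.66 over 13 alternative ways of processing, and after thinning 40.4% and 56.1% of cells held a Hes1 UMI (70.6% and 84.1% before). Of the 12753 genes with at least 100 UMIs in progenitor-like cells, 2.46% had a ratio as high, so the difference was uncommon but not singular, and between 0.816% and 5.88% did in the other 4 classes.

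Other values that moved with Hes1 were read as a description. Id1 and Id3, which encode inhibitors of proneural factors and were also the genes most alike to Hes1 across classes, had progenitor-like ratios of 1.43 (1.37 to 1.48) and 1.24 (1.20 to 1.28). Genes that respond to dissociation, chosen after the values of Hes1 were seen, went both ways in progenitor-like cells. Fos had a ratio of 0.916, Jun 0.948, Ier2 0.908 and Dnajb1 0.901. Egr1 was lower with 0.634 (0.415 to 0.970), and Junb was higher with 1.52 (1.04 to 2.25) from 40 and 102 UMIs. In endothelium-like cells Fos (1.58), Junb (1.23) and Ier2 (1.15) were higher and Egr1 (0.618) lower, with intervals that excluded 1. Their part in the Hes1 ratio was not tested. The median share of mitochondrial UMIs was 2.09% and 1.45% in progenitor-like cells. Whether the genotype, the pool of embryos or the handling of the library set the Hes1 level cannot be told apart with 1 library each.

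Beyond the 10 genes, 45 further pathway genes were read. Of the 43 with enough UMIs, 3 were at least 2-fold higher in neurogenic-like than in progenitor-like cells in both libraries, beside 3.24% of all genes. Another 4 were lower, beside 5.06%. The higher ones were Hes2, a Hes family member (29.1 and 24.4 CPM against 0.511 and 1.33 CPM), Mfng, a fringe glycosyltransferase that alters how receptors answer ligands (104 and 112 CPM against 14.6 and 15.8 CPM), and Dner, a non-canonical ligand (30.3 and 32.5 CPM against 9.07 and 9.43 CPM). The lower ones were the Notch targets Heyl (5.51 and 7.92 CPM against 28.8 and 21.6 CPM), Hey2 (3.06 and 2.02 CPM against 12.3 and 6.19 CPM) and Nrarp (33.4 and 32.5 CPM against 75.1 and 72.3 CPM), and Dtx3l. Of the further genes listed as targets, Hey2, Heyl and Nrarp were thus lower, as Hes1 was, whereas Hes2 was higher. Hey1, also listed as a target, was not among the genes 2-fold apart. In photoreceptor precursor-like over neurogenic-like cells, 1 of 41 genes was higher and 6 were lower, beside 7.32% and 6.13% of all genes. In amacrine and horizontal-like over neurogenic-like cells 4 of 42 were higher and 6 were lower, beside 12.5% and 7.02%. The fringe genes Lfng and Mfng were lower in both comparisons.

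In endothelium-like over progenitor-like cells, of 42 genes with enough UMIs, 7 were higher (Notch4, Jag2, Mfng, Adam10, Furin, Numb and Dtx3l) and 3 were lower (Heyl, Lfng and Dtx1). Over all genes 13.8% were higher and 18.1% lower, so the count of higher genes was near its share. Notch4, the endothelial receptor, stood at 81.7 and 84.9 CPM against 5.94 and 7.22 CPM, and Jag2, a further ligand, at 48.9 and 51.9 CPM against 3.32 and 3.57 CPM. Vessels and neurogenic cells shared Dll4 and Mfng, while Notch4, Jag1 and Jag2 were high in vessels and not in neurogenic-like cells.

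Between genotypes, the further genes past 2-fold were 1 higher and 0 lower of 43 in progenitor-like cells, 0 and 1 of 41 in neurogenic-like, 0 and 2 of 40 in photoreceptor precursor-like, 0 and 3 of 40 in amacrine and horizontal-like and 0 and 1 of 41 in endothelium-like cells. Over all genes, the shares past 2-fold either way were 7.92%, 6.22%, 7.21%, 9.25% and 7.26% in the same order of classes. Dlk1, a non-canonical ligand made by many embryonic tissues, was lower in humdG in all 5 classes, with a log2 ratio between -1.21 and -0.92. Notch2 was lower in all 5 as well, with ratios between 0.310 and 0.739. Dlk1 was among the leading genes of a mesenchyme-like cluster, and mesenchyme-like cells made up 13.1% and 5.90% of the kept cells. The part of free RNA in the Dlk1 and Notch2 ratios was not tested. The gene past 2-fold in progenitor-like cells was Hes2, from 8 and 35 UMIs, and the lower ones besides Dlk1 were Heyl in photoreceptor precursor-like and Notch2 and Neurl1a in amacrine and horizontal-like cells. Hes2, Heyl and Neurl1a are named here after their values were seen. Hey2, in contrast to Hes1, had a ratio of 0.503 (0.406 to 0.623) in progenitor-like cells, at 12.3 and 6.19 CPM. The vessel markers Pecam1 (7.85 and 3.72 CPM) and Cdh5 (6.96 and 3.00 CPM) were also lower in humdG in these cells. The part of free RNA in the Hey2 ratio was not tested.

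Across the 13 classes of both libraries (26 points, which share libraries and their free RNA), Dll3 and Hes6 were most alike of the 10 genes, with a Pearson correlation of log2(CPM + 10) of 0.92, followed by Dll1 with Hes6 (0.89) and Dll1 with Dll3 (0.87). Jag1 ran against Hes5 (-0.52) and Hes6 (-0.50). Among all 13957 genes with at least 500 UMIs, those among the 3 most alike included Psip1 and Btbd17 for Hes6 (0.95 and 0.95), Insm1, Vxn and Ccdc187 for Dll3 (0.96, 0.95 and 0.95), Hspa2, Hmgn5 and Foxn4 for Dll1 (0.94, 0.91 and 0.91), and Myb and Espn for Hes5 (0.99 and 0.92). Insm1 was among the markers that named the classes. For Dll4 they were Mfng, Pcdh17 and Gm14207 (0.91, 0.88 and 0.84), the last an antisense transcript that overlaps the bases just upstream of Dll4. For Notch1 they were Rangap1, Pnrc2 and Hmgn5 (0.89, 0.84 and 0.84), for Notch3 Glrb, Osbpl5 and Sult5a1 (0.86, 0.86 and 0.86), for Jag1 Emp2, Cyb5r3 and Itpr3 (0.92, 0.90 and 0.90), for Hes1 Id1, Id3 and Cadps2 (0.82, 0.80 and 0.77), and for Rbpj Cmtm7 and Pde3b (0.89 and 0.88).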

How the data were processed

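Single-cell 3′ mRNA of 2 eye cup libraries, 1 per genotype, was analysed. The authors made the deposited UMI counts per gene and barcode with Cell Ranger 7.1.0 on mm10 and analysed cells with Seurat 4.1.1 (submitters' processing notes). Whether intronic reads were counted is not given in the sources used here. The other time points of the study were not analysed here. The 10 genes, the marker lists and the 45 further pathway genes were chosen with earlier results of these data known.

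As in the authors' code, a barcode was kept if it held over 500 genes and less than 15% of its UMIs were mitochondrial, whereas the methods text gives a lower gene limit (136 and 178 barcodes failed the first limit, 268 and 258 the second). Scrublet in scanpy 1.11.5 marked 0 doublets, so the top 5% by doublet score were dropped instead (851 and 956 cells). Libraries were integrated in Seurat 5.3.0 (R 4.3.3) on 2000 variable genes without the Notch genes, using 20 components at resolution 0.5. Naming a cluster required 3 raised markers, 1 of them among its 30 leading genes. The number 30 was set after the clusters were seen, and 20 is an alternative. A class with more markers of another class among the top 10 genes of a cluster was not compared between genotypes, which left out mesenchyme-like cells.

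For each class and library, UMIs were added up and scaled to CPM of the class total, with exact 95% Poisson intervals. Shares have exact Clopper-Pearson intervals and ratios exact conditional binomial intervals (scipy 1.17.1). All cover counting error only, and no p-value is given because each genotype is 1 library. Genes counted as 2-fold apart needed 20 UMIs over the 2 sums. The interval calculation was checked on simulated counts. All 10 genes are named, with the 3 highest and 3 lowest further pathway genes of at least 100 UMIs in the contrast of neurogenic-like with progenitor-like cells and in each genotype comparison, and the 3 genes most alike to each, some of which are not reported here. The splits by cluster, by Neurog2 and of thinned cells by ligand were added after seeing the data. Upstream sequences came from RefSeq on GRCm38.p6, with entries for 9 of the 10 genes, and gene positions and exons from GENCODE M21, on the same assembly as mm10. Reads of Dll4 and its antisense neighbour Gm14207 are separable only if counting used strand, which is not given in the sources used here.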

Additional observations from a re-analysis of the deposited data

How the results depend on the processing

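The limit of these data is 1 pooled library per genotype: depth gives narrow intervals, yet spread between embryos was not measured. No paired analysis was possible because each genotype is a single library. Low genes rest on few UMIs, with 14 to 59 per class and library for Jag1 in the retina and 18 and 17 for Dll3 in vessels. Of 645 recomputed genotype values for the 10 genes in 5 classes, 559 moved by less than their interval, 84 moved further and 2 past 2-fold changed sign, and 90.9% kept their sign. Of 953 recomputed values between classes, 712 held, 240 moved and 1 past 2-fold changed sign, with 97.4% keeping their sign, and of 40 for the ligand split 12 held and 28 moved, with 80% keeping their sign.

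The values past 2-fold that changed sign were all of Jag1. Its humdG over humWT log2 ratio became 0.14 in neurogenic-like and 0.47 in photoreceptor precursor-like cells once the red blood cell-like CPM was subtracted, and its neurogenic-like over progenitor-like log2 ratio in humWT became -0.13 with classes from marker gates on single cells. Among values under 2-fold, that subtraction also turned the genotype log2 ratio of Hes1 in photoreceptor precursor-like cells to -0.84, and those of Hes1 and Hes5 in amacrine and horizontal-like cells to -2.51 and -0.63. In humdG these levels overlapped those of red blood cell-like cells before subtraction. The subtraction turned 16 of 46 computed genotype values in all. With marker gates, genes 2-fold apart in the ligand split of neurogenic-like cells went from 0 to 3, genes lower in neurogenic-like than progenitor-like cells from 2 to 1, genes higher in amacrine and horizontal-like than neurogenic-like cells from 0 to 1, and genes past 2-fold between genotypes from 0 to 4 in amacrine and horizontal-like, from 1 to 0 in endothelium-like and from 1 to 0 in neurogenic-like cells. With the red blood cell-like CPM subtracted, genes higher in amacrine and horizontal-like cells went from 0 to 1, genes higher in endothelium-like than progenitor-like cells from 2 to 1, and genes past 2-fold between genotypes from 0 to 1 in amacrine and horizontal-like and from 1 to 0 in endothelium-like cells. With the mean of the per-cell CPM, genes past 2-fold between genotypes were 2 in amacrine and horizontal-like, 3 in endothelium-like, 0 in neurogenic-like and 2 in photoreceptor precursor-like cells. In amacrine and horizontal-like cells the count was 1 with Notch genes allowed in clustering, without doublet removal, with scaling by the median of gene ratios, or without the cell with most UMIs of the gene, and in endothelium-like cells it was 0 with only cells of at least 2000 UMIs. After thinning, the ligand split of progenitor-like cells went from 1 to 0 genes, and the genes above red blood cell-like cells went from 5 to 2 in amacrine and horizontal-like and from 7 to 4 in endothelium-like cells. The cause of these shifts was not tested. The number of genes higher in neurogenic-like than in progenitor-like cells, and lower in the neuron classes than in neurogenic-like cells, stayed within 1.5 times its value under every alternative run.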
